A study of Schizosaccharomyces pombe with 8 samples.

Results

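Fission yeast starts meiotic recombination by cutting its own chromosomes, and the 10 genes described here encode proteins of that step. They are rec12 (SPAC17A5.11), rec6 (SPBC21B10.12), rec7 (SPCC1753.03c), rec15 (SPBC1711.14), rec24 (SPAC1952.15c), rec10 (SPAC25G10.04c), rec25 (SPAC17A5.18c), rec27 (SPBC577.05c), hop1 (SPBC1718.02) and mek1 (SPAC14C4.03). They were chosen by name for their known roles, at a point when earlier results of these data were known. They are 10 of the 4751 genes that could be named on the arrays. All 10 were spotted. Their RNA was followed in haploid Schizosaccharomyces pombe cells of one mating type that were given the pheromone of the other. M-factor was given to P cells (h+ cyr1-) and P-factor to M cells (h- sax2- cyr1-, the spelling of the labels, sxa2 in the study's methods), each at 1 μg/ml in MSL medium, for 2, 4 and 6 h. Each of these 6 samples was hybridised on 1 two-colour array against untreated cells of the same strain, taken at 0 h by the study's account, so that pheromone and time in culture cannot be told apart, and 2 further arrays set M cells directly against P cells, untreated and after 6 h with pheromone.

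Both strains carried cyr1::ura4+ and ura4-D18 in the study's methods, and both had lost silent mating-type cassettes to a LEU2 insertion, so neither could switch mating type. The cyr1 gene encodes adenylate cyclase, and strains without it need no nitrogen starvation to answer pheromone, and Sxa2 is a protease that degrades P-factor. All RNA therefore came from haploid cells that had no partner to mate with, in 1 strain per mating type. The spots were PCR products of both strands, so RNA of a gene and antisense RNA across it cannot be told apart. In such bulk samples a change in the number of responding cells and a change in RNA per cell cannot be told apart either.

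In meiosis of this yeast, the double-strand breaks that start recombination are made by Rec12, the relative of Spo11, together with a set of partner proteins. Instead of a full synaptonemal complex, the chromosomes carry linear elements, thin protein threads built around Rec10 with Rec25, Rec27 and Mug20, on which Hop1 and the kinase Mek1 also sit. Rec7, Rec15 and Rec24 form a group of accessory proteins that connects the linear elements with Rec12. In wild-type matings these events take place in the zygote, after the cells have fused.

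Ste11 is the HMG-box transcription factor that turns on mating and early meiotic genes, and the study listed its best match upstream of each of 161 genes that it had selected on these arrays. Sites upstream of 5 of the 10 genes stand in that list and are shown here because the list gives, for each, the letters to set beside the measured response. Capitals mark the 10 bases aligned with the consensus TTTCTTTGTT, which reads AACAAAGAAA on the opposite strand, and the 4 bases on each side are in lower case.
mek1: caaaTTTCTTCGTTatga
rec10: tatgATCAAAGTAAccgt
rec25: ttatTCTCTTTGGTtaca
rec27: attgAATAATGAAAcgcg
rec12: tcttGACAAAGGAGttgg
ste11: gttgTTTCTTTGTTgcaa
mei4: aaaaAGCAAAGAAAatta
rep1: gtaaAACAAAGAAAggat
dmc1: actgTTTTTTTGTTgtga

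Positions are counted from 1 at the 5′ end of TTTCTTTGTT, with the consensus base first. The mek1 site departed from the consensus at T7C alone. The rec25 site had T2C and T9G. The sites of rec10, rec27 and rec12 lay on the opposite strand, with T3A and T9A for rec10, T5A and G8A for rec27, and T1C, T3C and T10C for rec12. None of these 5 genes had an exact match. Of the 11 other meiotic genes counted further on that stand in the list, 5 were exact, among them ste11 itself and rep1, 5 had 1 mismatch, among them mei4 (T9C) and dmc1 (C4T), and 1 had 2. Of the 161 sites in the list, 34 (21.1%) were exact, 67 (41.6%) had 1 mismatch, 55 (34.2%) had 2 and 5 (3.11%) had 3, rec12 being among the last. These letters describe the listed site only. The share of all fission yeast promoters with such a match was not analysed here, and rec6, rec7, rec15, rec24 and hop1 were not in the list.

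Values below are log2 ratios of treated over untreated cells, averaged over the 2 spots of a gene, so that 1 is a 2-fold rise and −1 a 2-fold fall. The arrays measured 59 of the 60 possible values of the 10 genes in the courses, 52 of them on 2 spots and 7 on a single spot. The spots of these genes lay a median of 0.53 log2 units apart and at most 1.76, against a median of 0.39 over all genes. Each time had 1 array per pheromone, so the 3 times stand in for replicates, and the test was limma's moderated test of the mean of 3 arrays on the 4093 genes with all 6 values, with Benjamini-Hochberg adjustment and a threshold of 0.05.

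Of the 9 break and linear element genes with all 6 values, 7 rose and 0 fell with M-factor, while the other 2 did not pass the test. With P-factor, 7 rose, 1 fell and 1 did not pass. Before adjustment 1 gene, rec15, lay below 0 with M-factor at p under 0.05, a count that was not made over all genes. The 7 that rose were the same genes with both pheromones, namely rec12, rec24, rec10, rec25, rec27, hop1 and mek1, and rec15 was the one that fell. Over all genes, the M-factor course had 24.1% rising and 23.2% falling, and the P-factor course 18.1% rising and 18.3% falling. The median of the 9 mean log2 ratios was 1.32 in the M-factor course, 1.64 in the P-factor course, beside −0.02 for all genes in either course. All 5 linear element genes rose in both courses, as did rec12, while of the Rec7, Rec15 and Rec24 group only rec24 did.

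**Figure D1:**
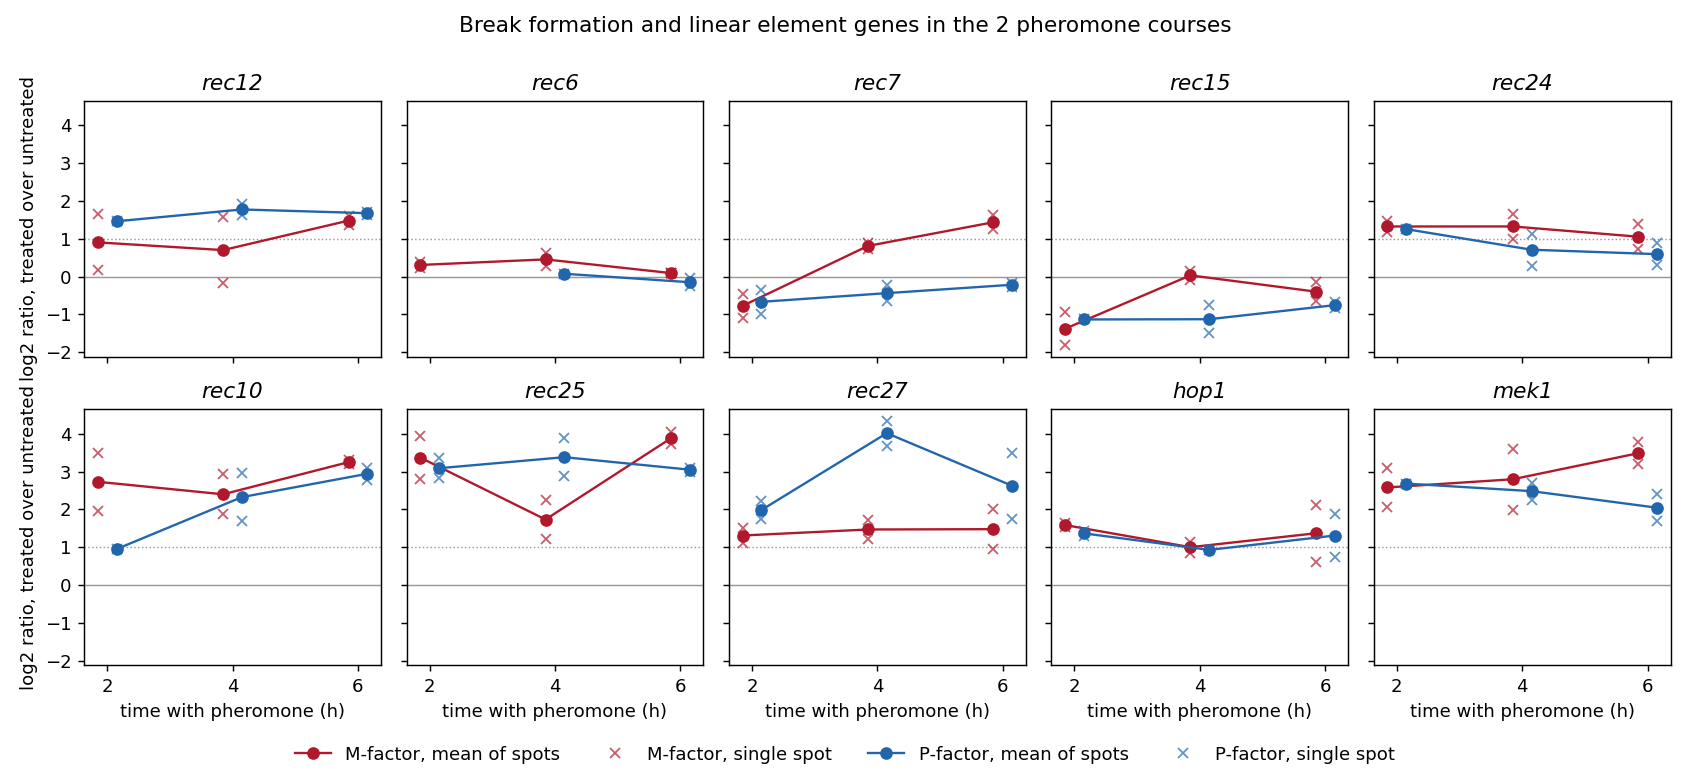
Log2 ratio of treated over untreated cells against hours with pheromone for each of the 10 genes, M-factor on P cells in red and P-factor on M cells in blue; circles are means of the spots, crosses single spots, and the dotted line marks a 2-fold rise. The lower panels hold the linear element genes, all above 0 at every time, and rec15 and rec7 hold the values below −0.5.

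Rec25 is a small linear element protein, and rec25 gave the highest mean of the 10 genes in both courses. With M-factor its log2 ratio was 3.37 at 2 h, 1.73 at 4 h and 3.88 at 6 h. With P-factor it was 3.09, 3.38 and 3.05. The 4 h array with M-factor was the low one, with spots at 2.24 and 1.23, and the other 5 arrays lay within 1 log2 unit of each other. The mean was 3.0 with M-factor (SE 0.33, n = 3 arrays, 7.98-fold, adjusted p = 0.000174) and 3.17 with P-factor (SE 0.33, 9.02-fold, adjusted p = 0.000245). It ranked 26 and 17 from the top among the 4093 genes. In the reference annotation rec25 overlaps pex6, a gene of peroxisome assembly. The spots named for pex6 read 0.94, 1.76 and 2.29 in P cells under M-factor and 1.25, 2.35 and 1.86 in M cells under P-factor, below rec25 on 5 of the 6 arrays, and the part of one gene's RNA in the other's signal was not tested.

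Rec27, the partner of Rec25 in the linear elements, was the gene for which the courses lay farthest apart. In P cells with M-factor rec27 stood at 1.31, 1.47 and 1.48, the narrowest range of the 10 genes in that course. In M cells with P-factor it stood at 1.98, 4.02 and 2.62, and the lowest of these was above the highest with M-factor. The mean was 1.42 with M-factor (SE 0.31, adjusted p = 0.00495) and 2.87 with P-factor (SE 0.31, adjusted p = 0.000283). The difference of 1.45 (95% interval 0.48 to 2.43) gave an adjusted p of 0.0807, just outside the threshold, and came inside it at 1.85 (adjusted p = 0.0313) once all arrays were scaled to the same spread. Without the 4 h array with P-factor it was 0.88 (adjusted p = 0.19), and with one log base read for all arrays 0.72 or 1.04 (adjusted p = 0.202). At 6 h with P-factor its spots read 1.75 and 3.50. The annotation places tho5, a gene of mRNA export, across rec27, and the tho5 spots read from 0.67 to 1.12 over the 6 arrays, below rec27 on each.

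Rec10 is the main structural protein of the linear elements and is related to Red1 of budding yeast. Under M-factor rec10 gave 2.73, 2.40 and 3.25, under P-factor 0.95, 2.33 and 2.94. The 2 h value with P-factor rested on a single spot and was the lowest of the 6. The mean was 2.79 with M-factor (SE 0.32, 6.94-fold, adjusted p = 0.000231) and 2.07 with P-factor (SE 0.32, 4.21-fold, adjusted p = 0.00163), and the difference of −0.72 had an interval of −1.75 to 0.31. The gene overlaps zip1, which encodes a transcription factor, in the annotation, and zip1 read from −0.02 to 0.64, below rec10 on every array.

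Mek1, a kinase of the meiotic recombination checkpoint, belongs to the linear elements through Hop1. The gene had the smallest adjusted p of the 10 in both courses. With M-factor mek1 rose to 2.58, 2.80 and 3.49 at 2, 4 and 6 h, in M cells under P-factor to 2.68, 2.48 and 2.05. The courses read alike at 2 h, on a single spot with P-factor and on spots at 2.07 and 3.09 with M-factor. They stood apart at 6 h, where the lower spot with M-factor (3.20) was above the higher with P-factor (2.40). The mean was 2.96 (SE 0.20, 7.76-fold, adjusted p = 2.05e-05) and 2.40 (SE 0.20, 5.29-fold, adjusted p = 9.59e-05), and the difference of the means, −0.55 (interval −1.19 to 0.09), did not pass (adjusted p = 0.246).

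Hop1 carries a HORMA domain and binds the linear elements, and hop1 was above the untreated level on all 6 arrays. It read 1.59, 1.00 and 1.37 in the M-factor course and 1.37, 0.93 and 1.31 in the P-factor course, with the lowest value at 4 h in each. The mean was 1.32 (SE 0.17, adjusted p = 0.000346) and 1.20 (SE 0.17, adjusted p = 0.000951). The means differed by −0.12, with an interval from −0.64 to 0.41. At 6 h its spots lay apart, at 0.62 and 2.12 with M-factor and at 0.74 and 1.88 with P-factor. The 4 h value with P-factor came from a single spot.

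Rec12 is the endonuclease relative that makes the break. The rec12 log2 ratio was 1.46, 1.78 and 1.68 in M cells with P-factor, the narrowest range of the 9 genes with 3 values in that course, and 0.91, 0.70 and 1.48 in P cells with M-factor. The mean with P-factor was 1.64 (SE 0.17, 3.11-fold, adjusted p = 0.000278), with the 2 h value on a single spot. With M-factor it was 1.03 (SE 0.17, 2.04-fold, adjusted p = 0.0015), but the spots disagreed there, at 0.17 and 1.65 at 2 h and at 1.58 and −0.17 at 4 h. Taking the spot nearest 0 on each array left a mean of 0.45 and ended that call (adjusted p = 0.227). The difference between the courses, 0.61 with an interval of 0.05 to 1.17, gave an adjusted p of 0.153.

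Rec6 works with Rec12 in break formation, and rec6 stayed near 0. With M-factor it read 0.31, 0.46 and 0.09. With P-factor it had no value at 2 h, 0.08 on a single spot at 4 h and −0.15 at 6 h, so it was not among the 4093 genes. In a fit of the 4522 genes with at least 2 values in each course, its mean was 0.29 with M-factor (SE 0.15, adjusted p = 0.151) and −0.04 with P-factor (SE 0.19, adjusted p = 0.891).

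Rec24, the relative of budding yeast Mei4, was the 1 gene of its group that rose. It read 1.33, 1.33 and 1.06 in P cells given M-factor and 1.26, 0.71 and 0.59 in M cells given P-factor, where the 2 h value came from a single spot. The mean was 1.24 (SE 0.17, adjusted p = 0.000506) and 0.85 (SE 0.17, adjusted p = 0.00455). With the spot nearest 0 the P-factor mean was 0.61 and its call was lost (adjusted p = 0.0615).

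Rec15, related to budding yeast Mer2, was below the untreated level on 5 of the 6 arrays. With P-factor rec15 read −1.13, −1.13 and −0.75, a mean of −1.0 (SE 0.24, adjusted p = 0.0116), and it fell past the threshold. The 2 h value there rested on a single spot. Without the 2 h array the mean was −0.94 (adjusted p = 0.0607) and without the 4 h array −0.94 (adjusted p = 0.0808), so the call needed both. With M-factor it read −1.38, 0.03 and −0.40, and the mean of −0.58 (SE 0.24) did not pass (adjusted p = 0.0721). When the time point was taken as a block shared by the courses, this value did pass (adjusted p = 0.0436), as it did without the 4 h array (mean −0.89, adjusted p = 0.0236). Without the 2 h array, the one with the opposite dyes, the mean was −0.18 (adjusted p = 0.452). SPBC1711.15c overlaps rec15 in the annotation and had no named value here.

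Rec7 is the relative of Rec114 of budding yeast. In P cells rec7 went from −0.77 at 2 h to 0.81 at 4 h and 1.44 at 6 h, both spots having the same sign at each time. In M cells with P-factor it stayed below 0, at −0.67, −0.44 and −0.21. Neither mean passed the test, at 0.49 (SE 0.34, adjusted p = 0.251) and −0.44 (SE 0.34, adjusted p = 0.333), nor did the difference of −0.93 (interval −2.0 to 0.14, adjusted p = 0.241). The 2 h array with M-factor was the only array of the 6 with treated RNA in Cy5, so dye and time cannot be told apart for it. Without that array the M-factor mean was 1.12 (adjusted p = 0.00384) and the difference was −1.56 (adjusted p = 0.0236), and without the 6 h array they were 0.0193 (adjusted p = 0.966) and −0.46 (adjusted p = 0.516), so both values turned on single arrays. In the annotation 4 non-coding RNA genes overlap rec7, among them tos1 and tos2, and their strand cannot be read from these spots. Non-coding RNA genes also overlap rec10, rec12, rec24, rec25, hop1 and mek1, with the same limit.

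**Figure D2:**
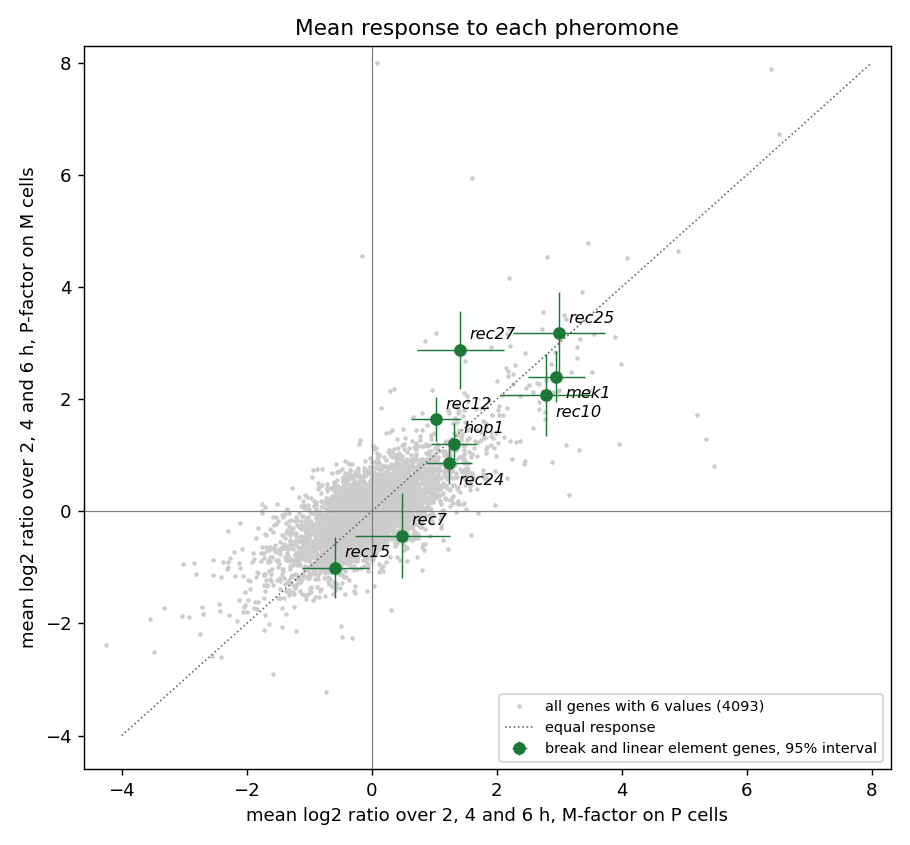
Mean log2 ratio over 2, 4 and 6 h with M-factor (horizontal axis) and with P-factor (vertical axis) for the 4093 genes with all 6 values in grey, and for the 9 break and linear element genes in green with 95% intervals. Of these, 7 lie to the upper right, and rec27 lies farthest above the dotted line of equal response.

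The study looked for genes induced at least 2-fold throughout a course, and by that rule, which is a count without a test, 6 of the 10 genes qualified with M-factor: rec10, rec24, rec25, rec27, hop1 and mek1. Over all genes with 3 values, 196 of 4615 did (4.25%). With P-factor 4 of 9 qualified, rec12, rec25, rec27 and mek1, beside 133 of 4099 genes (3.24%). Thus 7 genes qualified in at least 1 course and 3 (rec25, rec27 and mek1) in both. Some genes missed or passed by little. With P-factor hop1 was at 0.93 at 4 h and rec10 at 0.95 at 2 h, each on a single spot, and with M-factor rec12 was at 0.91 and 0.70. At single times between 5 and 8 of the 10 genes were past 2-fold, the fewest with P-factor at 4 h and the most with M-factor at 6 h. The share of all genes past 2-fold at a single time was not counted, so nothing is read from these counts.

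None of the 9 genes differed between the courses in the test of the difference itself, in which 4.64% of all genes did. The courses differ in pheromone, in mating type and in the sxa2 genotype together, so these cannot be told apart in that test. Before adjustment limma gave rec27 and rec12 a p under 0.05, both higher with P-factor, which makes 2 of the 9. The 4.64% is a share after adjustment, and the share of all genes before adjustment was not counted. The differences of P-factor minus M-factor ran from −0.93 for rec7 to 1.45 for rec27, with a median of −0.38. In the same test all 4 M cell markers were higher with P-factor, from 2.15 for mam1 to 7.92 for sxa2. Of the 3 P cell markers, map2, the P-factor gene, was lower by that test at −2.87 (adjusted p = 0.00174), and map3 (0.27) and map4 (−0.14) did not pass. The interval for rec25 (−0.87 to 1.23) reached past a 2-fold difference, and that for hop1 did not. Neither interval holds the error of the shared 0 h references, so neither can exclude a 2-fold difference.

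The direct arrays of M over P cells had 1 array each and gave values without a test. The study's own list heads the untreated values P over M, whereas the labels give M over P, and the mating-type genes on the array read as the labels do: map2 was at −2.94 and mam1, the M-factor transporter gene, at 2.15. In untreated cells the 10 genes lay between −0.18 and 0.53, and after 6 h with pheromone between −0.17 and 0.27. None was past 1.5-fold on either array, a mark that 2.46% of all genes passed untreated and 1.03% at 6 h. The highest of the 10 was rec7 on both, at 0.53 and 0.27, with both spots above 0 each time. At 6 h the other 9 genes were all at or just below 0, down to −0.17, and the median of the 10 was −0.13 beside −0.01 for all genes. The natural log base of the 6 h array is likely and not settled, and read as log2 its values would be smaller.

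For these genes the direct arrays mostly showed smaller contrasts than the courses did. For rec27 the courses at 6 h put P-factor above M-factor by 1.15, while M over P moved by 0.06 between the untreated and the 6 h array. For mek1 the figures were −1.44 and −0.20, for rec7 −1.65 and −0.26, and for rec25 −0.83 and −0.00. The median absolute size over the 10 genes was 0.41 by the courses and 0.09 by the direct arrays, and over all genes 0.36 and 0.11. Among the mating-type genes the gap was uneven. The courses gave the larger size for mam1, mam2, mam3, sxa2 and map2, as for mam2, the receptor gene of M cells, at 5.36 against 1.40, and for mam3 at 2.67 against 2.04. The M-factor receptor gene map3 went the other way, at 0.06 by the courses and −2.31 by the direct arrays, and map4 was near 0 by both (−0.06 and −0.01). These pairs of numbers share no array, and the source of the gap was not tested.

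**Figure D3:**
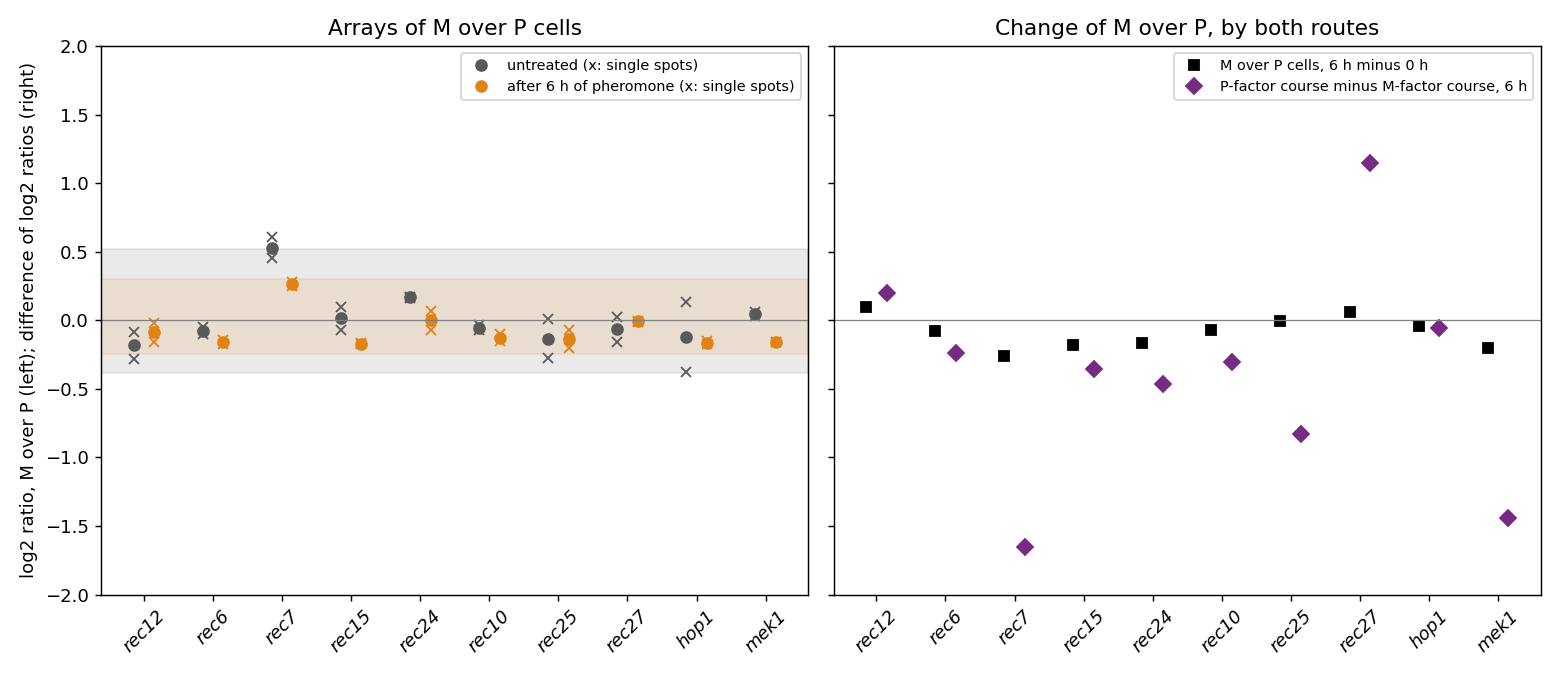
Left, log2 ratio of M over P cells for each gene, untreated (grey) and after 6 h with pheromone (orange), with circles for the mean of the spots, crosses for single spots and bands for the central 95% of all genes on each array. Right, the change in that ratio from untreated to 6 h (squares) beside the difference of the 2 courses at 6 h (diamonds), in log2 units; the diamonds for rec7, mek1 and rec27 are past 1 in size, and no square is.

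Genes of neighbouring meiotic steps were counted in the same way. The shares of all genes to set beside each list were 24.1% rising and 23.2% falling with M-factor. With P-factor they were 18.1% and 18.3%. Of 3 other genes of break formation and linear elements, mde2 and rec14 did not pass in either course, with means of −0.08 and −0.30 in the M-factor course and −0.28 and −0.03 in the P-factor course. Rec14 is the third protein of the Rec12 complex, and Mde2 is needed for break formation in this yeast. The third, mug20, had values only on the direct arrays, at −0.19 untreated and 0.03 at 6 h. Thus both tested partners of Rec12 outside the 10 genes stood near 0, where rec6 also stood.

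Cohesin holds sister chromatids together, and its meiotic subunits Rec8 and Rec11 are needed to load the linear elements. Of 11 cohesin genes, the M-factor course had 4 rising and 1 falling, and the P-factor course 6 rising and 0 falling, with medians of 0.17 and 0.51. The largest means were those of mis4, a cohesin loader, at 2.78 in the M-factor course and 1.65 in the other, and of psm3, a core subunit, at 2.37 and 1.26. The regulators pds5 (0.73 and 0.72) and eso1 (0.41 and 0.80) followed, eso1 not passing with M-factor. The meiotic subunits themselves did not pass in either course, rec8 at −0.44 and −0.20 and rec11 at −0.11 and −0.22. These 2 genes were named for their role with the linear elements after their values were seen.

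Proteins that process the break and exchange strands act after Rec12. Of the 20 such genes tested, 12 rose in each course, while 1 fell with M-factor and 2 with P-factor, with medians of 0.85 and 0.76. The meiotic recombinase gene dmc1 led at 3.18 and 2.48, followed by rti1, a homologue of rad52, at 2.37 and 2.06. The junction endonuclease gene eme1 stood at 2.03 and 1.23, and meu13, whose product aids strand exchange between homologues, at 1.34 and 1.66. These 4 means all passed the test. By their medians the break and linear element genes stood above this list in both courses, a difference that was not tested.

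Among 9 regulators of entry into meiosis, 6 rose in each course, while 3 fell with M-factor and 1 with P-factor. Their median was 1.44 with M-factor, above the 1.32 of the break and linear element genes. With P-factor it was 0.96, below their 1.64, and neither difference was tested. The transcription regulator gene rep1 led at 3.90 and 3.11, mei2, whose product switches cells to meiosis, gave 2.59 and 2.13, mei4, which drives middle meiotic genes, 2.59 and 1.49, and ste11 1.92 and 1.72. Of 4 genes of middle meiosis and spore formation tested, mes1, a regulator of the second division, rose in both courses at 0.80 and 0.73. The others, spo4, spo5 and spo6, did not pass, with means between −0.54 and 0.19. A count of 1 of 4 is near the share of all genes that rose, 24.1% and 18.1%, and nothing is read from it.

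**Figure D4:**
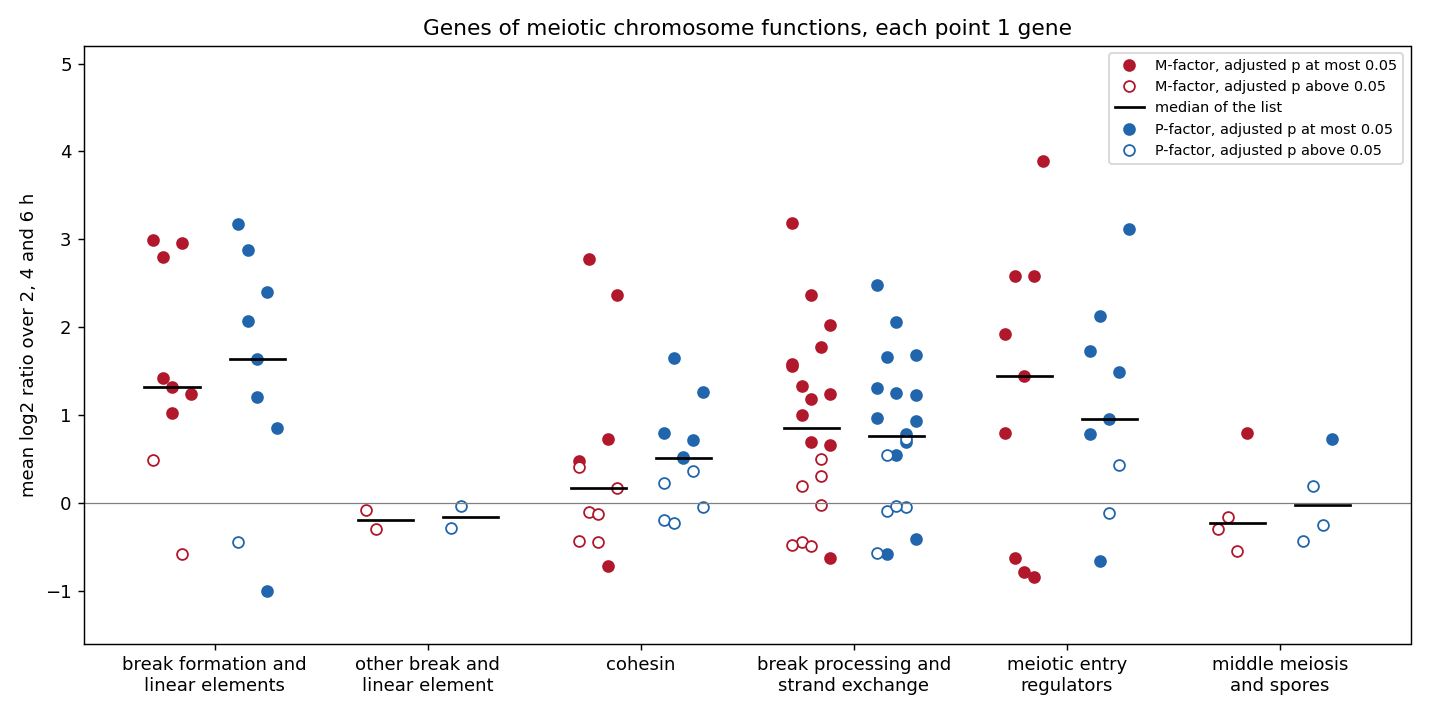
Mean log2 ratio over 2, 4 and 6 h of each gene, by list, with M-factor in red and P-factor in blue; filled points passed the test, open points did not, and black bars are list medians. The bars of the break and linear element genes stand at 1.32 and 1.64, and those of the meiotic entry regulators at 1.44 and 0.96. Those of the 4 middle meiosis and spore genes stand at −0.23 and −0.03.

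The genes whose 6 ratios lay nearest to the per-array median of the 10 genes, by Euclidean distance over the 6 course arrays, were SPAC57A10.07 at 0.50, the autophagy gene atg8 at 0.52, the protease gene psp3 at 0.61, SPBC800.14c at 0.62 and rho5, which encodes a small GTPase, at 0.65. The median profile that they followed was 1.32, 1.16 and 1.46 under M-factor and 1.37, 1.35 and 1.49 under P-factor. It was flat in both courses, with all 6 medians within 0.33 log2 units.

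Of the series as a whole, the medians of the 6 course arrays over all genes lay between −0.03 and 0.04, so the ratios were centred near 0. The arrays correlated with each other across genes at 0.52 to 0.91. The M cell genes mam1, mam2, mam3 and sxa2 all rose with P-factor, with means from 3.17 to 8.0, and were above 0 on both direct arrays. Of the P cell genes, map2 and map3 were below 0 on both direct arrays, and map4 stood at 0.07 and 0.06. In the M-factor course the mean was 3.16 for map2, which rose, −0.35 for map3, which did not pass, and 1.0 for map4, which rose there and with P-factor (0.86). The strain labelled sax2- read 8.37, 9.36 and 6.27 for sxa2 with P-factor. The nature of that allele is not given in the sources used here, so these spots do not check the label, and cyr1 was disrupted in both strains and could not check it either.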

How the data were processed

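Two-colour arrays with PCR-product spots in duplicate were scanned, quantified in Imagene and normalised by lowess in GeneSpring by the authors, who deposited log ratios per spot. By a match with the study's ratios, the deposited values were log2 for M-factor at 2 and 4 h and natural log for other arrays. In the courses 152 of 155 listed genes met for M-factor and 121 for P-factor, within 2% or a small fixed difference in fold. On the untreated M over P array all 155 met within 2%. The base of the 6 h M over P array is inferred. All values were turned into log2, spots were named through the platform annotation and averaged per gene, and no depth applies to arrays, whose number limits the precision. Treated RNA was in Cy5 on the 2 h M-factor array and in Cy3 on the other course arrays.

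Means of 3 arrays were tested with limma 3.58.1 (R 4.3.3; lmFit and eBayes, one spread for both courses, Benjamini-Hochberg over 4093 genes, threshold 0.05). The code was tested on simulated data, and tables and figures used Python 3.11.15, numpy 2.4.6, pandas 2.3.3 and matplotlib 3.10.9. No array was repeated, so p-values measure only the spread between time points. The reference of each course array was the 0 h sample of the same mating type, per the study's text, so the 3 arrays of a course share that reference and its error is not in the spread. Arrays of the same time deviated together from the course means across genes (correlations of 0.35, 0.10 and 0.35; at most 0.04 between different times), so the time point was also fitted as a block. Other alternatives were scaling, centring, log base, spot rule, missing and floor values, each course alone, eBayes with trend, treat, the methods' t-test, other fold thresholds and leaving out each array.

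The genes and lists were chosen with earlier results of these data known. Genes named are the 10 themselves, up to 4 of each other list by largest absolute mean over the 6 arrays, and the 5 nearest profiles. Gene names and overlaps come from RefSeq assembly ASM294v3, whose coordinates are not printed. The sites are letters from the study's list. Its positions, scores and fold values, and its own significance calls, are not reported here.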

Additional observations from a re-analysis of the deposited data

How the results depend on the processing

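With 3 arrays a course and 1 array a time, the spread between times is the only error, and the spots of a gene lie far apart on some arrays. Of the values of single break and linear element genes, 302 of 333 kept their direction and side of the threshold under other settings and 154 of 162 when 1 array was left out. The block by time point changed the call of rec15 with M-factor and of no other of these genes, and raised the count of middle meiosis and spore genes called with M-factor from 1 to 2, the added one lower. Under it the cohesin genes called with P-factor went from 6 to 5, and the break processing and strand exchange genes from 13 to 16 with M-factor (falling, from 1 to 3) and from 14 to 16 with P-factor (falling, from 2 to 3). With P-factor, rec7 also passed when that course was fitted alone (−0.44, adjusted p = 0.0317), and rec15 did not when one log base was read for all arrays (adjusted p = 0.0713).

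The difference of P-factor minus M-factor changed sign for hop1 when arrays were scaled to one spread (0.15), without the 2 h M-factor array (0.017) and without the 4 h P-factor array (0.0194). For rec25 it changed sign with all arrays read as log2 (−0.40) or as natural log (−0.58) and without the 4 h M-factor array (−0.45). The number of the 9 genes differing between the courses went from 0 to 1 with scaling (rec27) and from 0 to between 0 and 1 when an array was left out (rec7, without the 2 h M-factor array).

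Requiring both spots on all 6 arrays, a setting chosen after seeing the data, left only rec7, rec25 and rec27 of these genes tested. Of them 2, rec25 and rec27, were called in each course and were at least 2-fold up throughout in each. The number of all genes tested under that setting is not given here. The methods' t-test after Benjamini-Hochberg called 0 of the 9 genes in either course and 5 of all genes with M-factor and 6 with P-factor. Unadjusted it called 7 of the 9 with M-factor, 6 with P-factor, and 1168 of all genes with M-factor. The cause of the other changes in counts was not tested. At least 3-fold at every time was met by 3 of the genes with M-factor, and so was 2-fold on every spot (3) or on the spot nearest 0 (3). At least 1.5-fold was met by 7 with P-factor.

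Over all genes, counts for M-factor, 1933 at first, were 1040 with the spot nearest 0, 421 when more than 1.5-fold was asked and 1119 with both spots. For P-factor, 1491 at first, they were 847, 208 and 923 under those settings, 689 with one log base for all arrays, and from 541 (without the 4 h P-factor array) to 1669 with an array left out, 718 without the 6 h P-factor array. For the difference, 190 at first, they were 33, 10 and 126, with 327 under trend and robust eBayes, 72 with one log base, and from 13 (without the 4 h P-factor array) to 296 (without the 2 h M-factor array) with an array left out, the M-factor 4 h array giving 47 and the P-factor 2 h and 6 h arrays 17 and 16. The 2-fold rule gave 196 genes with M-factor at first, 494 at 1.5-fold, 82 at 3-fold, 121 on every spot or on the spot nearest 0 and 113 with both spots. With P-factor it gave 133 at first, 333 at 1.5-fold, 61 at 3-fold and 72 with arrays read as log2.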
